A study of Mus musculus with 4 samples.

Results

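The 6 genes described here, Fkbp5, Tsc22d3, Ddit4, Zbtb16, Sgk1 and Klf9, are responsive to glucocorticoid hormone in many tissues and were taken from 33697 features counted in mouse trachea. Their Ensembl identifiers are ENSMUSG00000024222 (Fkbp5), ENSMUSG00000031431 (Tsc22d3), ENSMUSG00000020108 (Ddit4), ENSMUSG00000066687 (Zbtb16), ENSMUSG00000019970 (Sgk1) and ENSMUSG00000033863 (Klf9). They were chosen by name after Fkbp5 and Tsc22d3 had been seen at higher levels in both Ctnnb1 knockout libraries. Their knockout to control ratios are therefore a description and carry no weight of their own. All 6 genes were detected in each of the 7 cell types and 4 libraries examined.

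Single-cell RNA was counted in 4 libraries, 1 each of dorsal knockout, dorsal control, ventral knockout and ventral control trachea, so no test between groups was possible. All mice received tamoxifen and carried P63-CreER, a Cre recombinase that tamoxifen switches on in basal cells expressing P63, the stem cells of the airway lining. They also carried Ki67-lsl-Dre, which makes a further recombinase in cells expressing Ki67 once Cre has acted, and Rosa26-rsr-GFP, a GFP gene that this recombinase releases. Knockout mice were Ctnnb1-fl/fl and were designed to lose both copies of the beta-catenin gene where Cre acts, while control mice were Ctnnb1-fl/+ and had 1 floxed copy. Tissue was taken 10 days after the tamoxifen, and papain was used to free the cells. Cre was restricted to P63-expressing cells and their descendants, so fibroblasts, chondrocytes, macrophages and T cells of the knockouts lie outside its reach by design. How many mice made up a library, their age and the hour of collection are not stated.

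Glucocorticoids are adrenal steroid hormones whose level in blood follows a daily rhythm and climbs with stress. Inside cells they bind the glucocorticoid receptor, encoded by Nr3c1 and held ready by Hsp90 chaperones, which then enters the nucleus and binds DNA elements near its target genes. In airways these hormones are known for restraining inflammation and for promoting sodium uptake across the epithelium. Fkbp5 encodes a co-chaperone of Hsp90 that lowers the receptor's affinity for hormone, a negative feedback loop. Tsc22d3 encodes GILZ, a leucine zipper protein that mediates anti-inflammatory effects. Ddit4 encodes REDD1, an inhibitor of the growth kinase complex mTORC1 that also responds to hypoxia and other stresses. Sgk1 encodes a kinase that increases the number of epithelial sodium channels at the cell surface. Zbtb16 and Klf9 encode zinc finger transcription factors, and Zbtb16 (also called PLZF) is required for the development of innate-like T cells.

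Promoter sequence is shown because the receptor acts through DNA elements near its targets, and the windows show which of the genes carry such letters close to a start. Windows of 250 bases directly before the annotated transcription starts were taken from RefSeq on mouse build GRCm38.p6, which is older than the GRCm39 build used for counting. Of the 6 genes, 5 had windows, 12 in all, of which Sgk1 had 6, Tsc22d3 had 3 and Fkbp5, Ddit4 and Klf9 had 1 each. The motifs searched, on both strands, were a full palindromic element (AGAACA, any 3 bases, TGTTCT), a looser form lying within it (GNACA, any 3 bases, TGTNC) and the single arm AGAACA, which also makes up each end of the full element. The full element was present in 1 of the 12 windows, that of an Sgk1 start on chromosome 10, and in 3 of all 32817 windows in the table (0.00914%). The looser form was present in 127 windows (0.387%) and the single arm in 5277 windows (16.1%). Among the windows of the 6 genes, 4 held a single arm. They include a Tsc22d3 window that is not printed here (chrX:140600523-140600772), where the arm begins 185 bases before the start. The others are Sgk1 windows. The Sgk1 window with the full element and the windows of Fkbp5 and of a Tsc22d3 start are printed 5′ to 3′ on the strand of the gene, with every match in capitals (TGTTCT is AGAACA on the other strand).
Sgk1, chr10:21993640-21993889, plus strand: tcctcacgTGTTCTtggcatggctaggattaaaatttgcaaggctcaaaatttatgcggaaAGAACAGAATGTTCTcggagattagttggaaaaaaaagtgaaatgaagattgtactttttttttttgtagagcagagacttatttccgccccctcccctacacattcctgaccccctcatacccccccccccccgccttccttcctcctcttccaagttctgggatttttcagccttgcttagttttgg
Fkbp5, chr17:28486150-28486399, minus strand: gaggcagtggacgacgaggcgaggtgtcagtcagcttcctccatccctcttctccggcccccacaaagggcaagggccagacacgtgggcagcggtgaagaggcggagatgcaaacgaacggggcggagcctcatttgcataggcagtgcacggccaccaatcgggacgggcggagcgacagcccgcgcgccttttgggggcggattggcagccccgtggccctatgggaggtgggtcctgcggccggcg
Tsc22d3, chrX:140548572-140548821, minus strand: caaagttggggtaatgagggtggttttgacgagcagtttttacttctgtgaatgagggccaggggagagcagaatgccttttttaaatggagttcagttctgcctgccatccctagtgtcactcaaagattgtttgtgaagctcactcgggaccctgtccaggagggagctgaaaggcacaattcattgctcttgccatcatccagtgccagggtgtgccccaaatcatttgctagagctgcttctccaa
The element in the Sgk1 window begins 189 bases before the start and is 15 bases long. The Fkbp5 and Tsc22d3 windows shown hold none of the 3 motifs, which says only that these letters are not in those 250 bases.

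Cell types were taken by marker gates, and 21002 of the cells that passed the filters fell in exactly 1 gate. In the dorsal knockout, dorsal control, ventral knockout and ventral control libraries, the basal gate (Trp63 and Krt5) held 856, 1980, 515 and 830 cells, with medians of 21574.5, 15893, 22888 and 22420 UMIs (unique molecular identifiers, each 1 counted RNA molecule) per cell. Of 46 markers, 45 were highest in their own type in every library, and Cyp2f2, a secretory marker, was higher in basal-gated cells. Levels are given as CPM, the UMIs of a gene for each 1000000 UMIs of the gated cells of 1 library. Ctnnb1 stood at 209 and 281 CPM in dorsal knockout and control basal-gated cells and at 233 and 295 in ventral ones. It was also lower in fibroblasts, at 99.0 against 126 dorsally and 133 against 155 ventrally, and with a kit that reads the 5′ end and unstated deleted exons these counts do not check the deletion. Ribosomal protein RNA made up 20.9% of UMIs in dorsal knockout and 16.0% in dorsal control basal-gated cells, and 17.6% and 17.8% in the ventral pair. In the dorsal pair the median gene was lower in the knockout by 0.08 to 0.14 on the log2 scale, depending on the type, which moves each dorsal ratio up slightly when it is set against the median gene.

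Ratios are knockout over control, with 95% intervals that cover counting error only, since cells of 1 library are not replicates. A 1.5-fold difference in either direction is used as a yardstick of size. Library and genotype cannot be told apart.

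**Figure D1:**
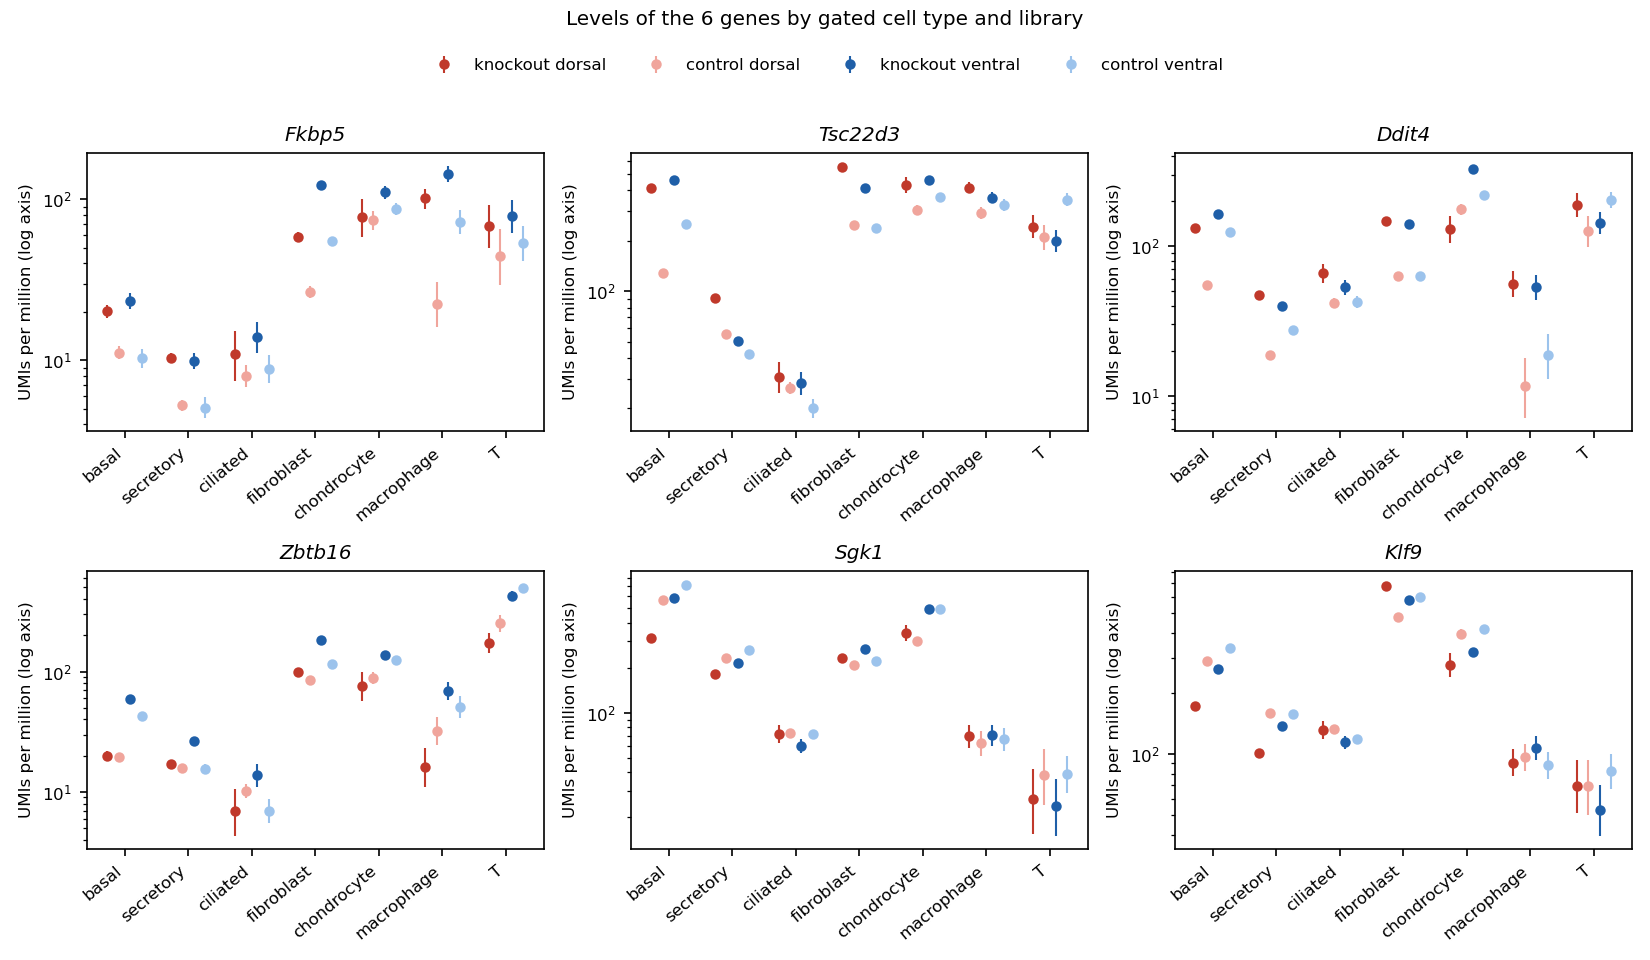
Level of each gene (CPM, log axis) in 7 gated cell types of the 4 libraries. Points are summed counts and bars are 95% Poisson intervals of counting error. Fkbp5 points of both knockout libraries lie above their controls in each type, by little in dorsal chondrocytes (77.6 against 74.0), whereas Sgk1 and Klf9 points of knockout basal cells lie below.

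Fkbp5, the feedback gene, was higher in the knockout library in 14 of 14 type and region pairs, with ratios between 1.05 and 4.50 and 10 of them at 1.5 or more. In basal cells it stood at 20.2 CPM in the dorsal knockout and 11.2 in the dorsal control, and at 23.4 in the ventral knockout and 10.3 in the ventral control. The basal ratios were 1.81 (1.58 to 2.07) dorsally and 2.27 (1.89 to 2.74) ventrally. Both knockout basal levels thus lay above both control levels with no overlap of the counting intervals. Fibroblasts, which by design lie outside the reach of Cre, had higher levels than basal cells and like ratios, with 58.1 and 26.7 in dorsal knockout and control and 122 and 55.2 in the ventral pair, giving 2.18 (1.95 to 2.44) and 2.21 (2.06 to 2.38). Macrophages gave the highest dorsal ratio, 4.50 (3.18 to 6.52), from 101 against 22.5, and a ventral ratio of 1.996 (1.62 to 2.47), from 144 against 72.1. In chondrocytes, which had the highest Fkbp5 of the controls, the ratios were lower, at 1.05 (0.769 to 1.41) dorsally, from 29 knockout cells, and 1.27 (1.12 to 1.44) ventrally. The dorsal chondrocyte ratio changed direction under other processing, at 0.811 with gate thresholds halved and 0.914 with cells weighted alike.

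The order of cell types for Fkbp5 was similar at its low end in every library. Secretory and ciliated cells had the lowest levels, 5.10 to 14.0, and basal cells came next at 10.3 to 23.4. The intervals of basal and ciliated cells overlapped in the ventral control, and those of ciliated and secretory cells overlapped in both knockouts. At the high end, chondrocytes led in both controls (74.0 dorsally and 87.1 ventrally), and their intervals overlapped those of T cells dorsally and of macrophages ventrally. Macrophages led in both knockouts, where their intervals overlapped those of T cells dorsally and of fibroblasts ventrally.

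Tsc22d3, which encodes the anti-inflammatory protein GILZ, had the widest basal difference of the 6 genes in the dorsal pair. It stood at 415 CPM in dorsal knockout basal cells and 128 in dorsal control ones, and at 459 in ventral knockout and 252 in ventral control ones. The ratios were 3.24 (3.13 to 3.35) and 1.82 (1.75 to 1.90). The control levels differed between regions more than the knockout levels did. In fibroblasts it was at 548 against 250 dorsally and 415 against 239 ventrally, with ratios of 2.20 (2.12 to 2.28) and 1.74 (1.68 to 1.80). Secretory cells had ratios of 1.64 dorsally (91.7 against 55.9) and 1.19 ventrally (50.4 against 42.5). Ventral T cells went the other way, at 200.2 in the knockout against 353 in the control (0.567, 0.475 to 0.675), and dorsal T cells were at 244 against 210.4 (1.16, 0.911 to 1.48). Tsc22d3 was higher in the knockout in 13 of 14 pairs, ventral T cells being the exception. Ciliated cells had the lowest Tsc22d3 in all 4 libraries (20.0 to 30.7) and secretory cells the next lowest. Fibroblasts led in the dorsal knockout and chondrocytes in the other 3 libraries, with intervals that overlapped those of macrophages in the dorsal control, of basal cells in the ventral knockout and of T cells in the ventral control.

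Ddit4, the mTORC1 inhibitor gene, was higher in the knockout in 12 of 14 pairs, dorsal chondrocytes and ventral T cells being the exceptions. In basal cells it stood at 131 in the dorsal knockout and 54.7 in the dorsal control, and at 163 in the ventral knockout and 124 in the ventral control, with ratios of 2.40 (2.27 to 2.54) and 1.32 (1.24 to 1.40). As with Tsc22d3, the dorsal control library had the lowest basal value, and for Ddit4 the other 3 libraries lay closer together. Fibroblasts instead had nearly equal controls, 62.60 dorsally and 63.01 ventrally, below knockout levels of 146 and 139, with ratios of 2.33 (2.17 to 2.51) and 2.21 (2.07 to 2.37). Secretory cells had ratios of 2.53 (2.40 to 2.67) dorsally and 1.43 (1.31 to 1.56) ventrally. In macrophages the levels were 55.9 against 11.6 dorsally and 53.2 against 18.7 ventrally. Those macrophage ratios, 4.84 (2.98 to 8.24) and 2.85 (1.93 to 4.29), rest on 107 and 20 UMIs dorsally and 109 and 35 ventrally. T cells led in the dorsal knockout and chondrocytes in the other 3 libraries, where their interval overlapped that of T cells in the ventral control.

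Sgk1, the sodium channel kinase gene, did not follow these 3 genes. It was lower in knockout basal cells, at 318 against 566 dorsally and 589 against 717 ventrally, with ratios of 0.562 (0.547 to 0.577) and 0.821 (0.798 to 0.846). Secretory cells had ratios of 0.782 (0.767 to 0.798) and 0.824 (0.798 to 0.852). In fibroblasts Sgk1 was at 231 against 209 dorsally and 267 against 222 ventrally, ratios of 1.11 (1.06 to 1.16) and 1.20 (1.15 to 1.25). With cells weighted alike the dorsal fibroblast ratio was 0.995. Macrophage and ciliated ratios lay between 0.829 and 1.11 in both regions. Basal cells had more Sgk1 than any other type with 50 cells or more in all 4 libraries, followed by chondrocytes in the 3 libraries where these had 50 cells, and T cells had the least.

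Klf9, a transcription factor gene, was also lower in knockout basal cells, at 174 against 289.5 dorsally and 263 against 335 ventrally. The ratios were 0.601 (0.579 to 0.623) and 0.785 (0.752 to 0.819). In secretory cells they were 0.635 (0.619 to 0.652) and 0.874 (0.838 to 0.911). Fibroblasts had the highest Klf9 of the types in all 4 libraries, with 683 and 475 in dorsal knockout and control and 579.9 and 602 in the ventral pair. The fibroblast ratios were 1.44 (1.40 to 1.48) and 0.964 (0.937 to 0.991), so the 2 regions lay on opposite sides of 1. Klf9 was above its control in 3 of 14 pairs and Sgk1 in 5 of 14, and for both genes some values near 1 crossed it under other processing.

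Zbtb16, the PLZF gene, ranged widely over the cell types. T cells led in all 4 libraries, at 172 and 253.5 in dorsal knockout and control and 425 and 495 in the ventral pair, and ciliated cells had the least. In basal cells it stood at 19.9 against 19.6 dorsally, a ratio of 1.02 (0.902 to 1.15) that falls to either side of 1 with the processing, and at 59.7 against 42.5 ventrally, a ratio of 1.40 (1.27 to 1.55). Ventral fibroblasts (183 against 115, 1.59, 1.51 to 1.68), ventral secretory cells (26.7 against 15.5, 1.72, 1.54 to 1.93) and ventral ciliated cells (13.9 against 6.97, 1.99, 1.44 to 2.76) were higher in the knockout. With cells weighted alike the ventral secretory ratio was 2.59. The dorsal ratios of these 3 types were 1.17 (1.09 to 1.26), 1.07 (0.999 to 1.15) and 0.676 (0.410 to 1.06). Zbtb16 was above its control in 6 of 7 types ventrally and in 3 of 7 dorsally.

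**Figure D2:**
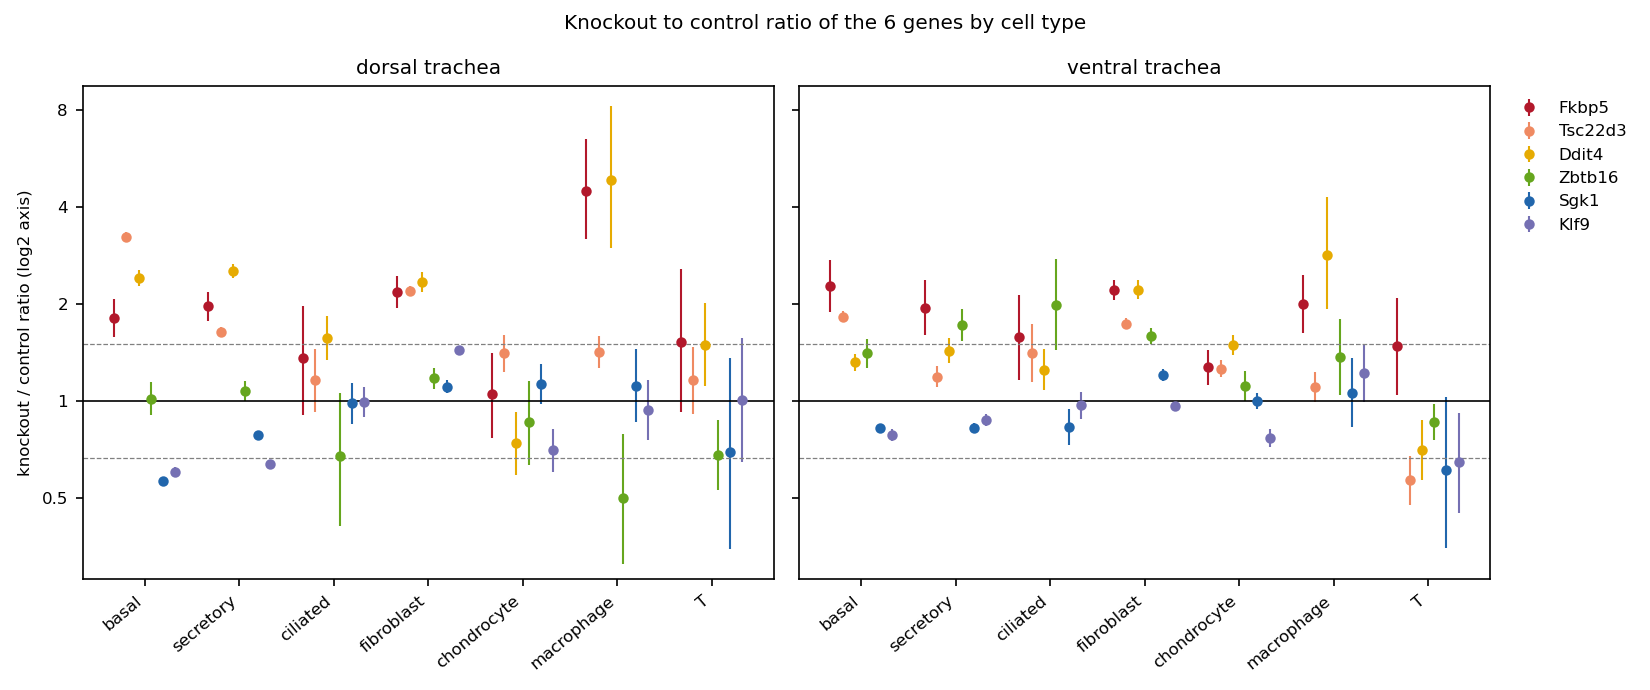
Knockout to control ratio of the 6 genes (log2 axis) by gated type, dorsal on the left and ventral on the right. Bars are 95% intervals of counting error, the solid line is a ratio of 1 and the dashed lines are 1.5-fold. Fkbp5, Tsc22d3 and Ddit4 lie above the solid line in basal, secretory, ciliated, fibroblast and macrophage gates of both regions, and Sgk1 and Klf9 lie below it in basal and secretory gates.

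The size of these differences was read against all genes with at least 50 UMIs in 1 library of a pair. In dorsal basal cells 3 of the 6 genes were at least 1.5-fold higher in the knockout, as were 7.56% of all genes, and 2 were at least 1.5-fold lower, as were 16.2%. In ventral basal cells 2 were higher (2.22% of all genes) and 0 lower (3.91%). Fibroblasts had 3 higher dorsally (5.84% of all genes) and 4 ventrally (3.17%), secretory cells 3 (6.47%) and 2 (2.29%), ciliated cells 1 (4.16%) and 2 (2.88%), and macrophages 2 (4.85%) and 2 (6.83%). Chondrocytes had 0 in both regions (6.33% and 3.89%), and T cells had 0 of the 3 genes with enough UMIs dorsally (8.29%) and 0 of 5 ventrally (4.93%). Lower members outside basal cells were Klf9 in dorsal secretory cells (15% of all genes), Zbtb16 in dorsal macrophages (16.7%) and Tsc22d3 and Klf9 in ventral T cells (6.15%). Since the genes were picked on this contrast, nothing is read from these counts. Set against the median gene of the dorsal basal pair, the ratios were 3.47 for Tsc22d3, 2.57 for Ddit4, 1.94 for Fkbp5, 1.09 for Zbtb16, 0.645 for Klf9 and 0.603 for Sgk1.

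The mix of cell types also differed between libraries, so ratios over whole libraries were compared with ratios at the control's mix of types. Over all cells Fkbp5 was at 23.3 against 10.6 dorsally and 39.9 against 19.9 ventrally, ratios of 2.21 and 2.01, which became 2.02 and 2.18 at the control's mix. Tsc22d3 had whole-library ratios of 2.67 and 1.54, and 2.40 and 1.68 at the control's mix. Ddit4 had 2.48 and 1.48, and 2.34 and 1.56. Klf9 had 0.977 and 0.899, and 0.902 and 0.951. Of the 6 genes, 0 changed sides of 1 in either region when the mix was held. Cells in no gate, and those in several gates, were each held as a single group. The mix of types inside those groups was therefore not held. Cells in no gate made up 38.4% of the dorsal knockout and 24.1% of the dorsal control cells. In the ventral knockout and control they made up 54.9% and 44.2%.

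**Figure D3:**
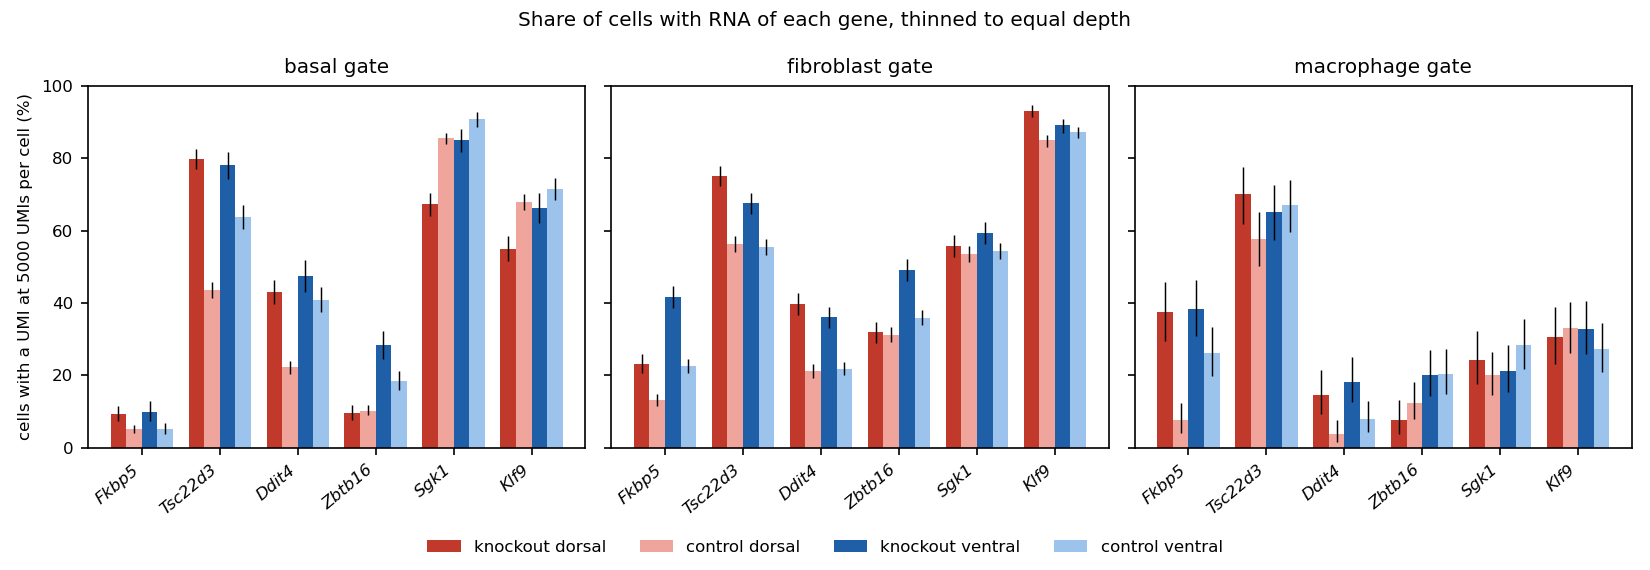
Share of cells with at least 1 UMI of each gene after thinning every cell to 5000 UMIs, in the basal, fibroblast and macrophage gates. Bars are shares in each library and lines are 95% Clopper-Pearson intervals over cells. Tsc22d3 RNA was found in 79.9% of dorsal knockout and 43.6% of dorsal control basal cells, while Sgk1 RNA was found in 67.4% and 85.6%.

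Shares of cells with a UMI show how the RNA was spread over basal cells. With each cell thinned to 5000 UMIs, Tsc22d3 RNA was found in 79.9% (77.1 to 82.6) of 852 dorsal knockout and 43.6% (41.4 to 45.9) of 1951 dorsal control basal cells. The ventral shares were 78.2% (74.3 to 81.7) of 513 and 63.8% (60.4 to 67.05) of 828. Thinning left out 4, 29, 2 and 2 shallower basal cells of the dorsal knockout, dorsal control, ventral knockout and ventral control libraries. Without thinning the Tsc22d3 shares were 98.1% and 75.7% dorsally and 95.9% and 94.2% ventrally. The median basal cell held 9 Tsc22d3 UMIs in both knockout libraries, against 2 in the dorsal and 5 in the ventral control. The top 1% of basal cells carried between 4.08% and 6.26% of the Tsc22d3 UMIs, and between 9.51% and 16.7% of the Fkbp5 UMIs, of which the median basal cell held 0. In macrophages the top 1% of cells carried 16.5% to 40% of the Ddit4 UMIs, the highest share being that of the dorsal control with its 20 UMIs.

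Thinned Fkbp5 shares in basal cells were lower, at 9.39% and 5.13% dorsally and 9.94% and 5.07% ventrally (34.2% and 16.8%, and 34.2% and 18.3%, unthinned). Ddit4 was found in 43.1% against 22.2% dorsally and 47.6% against 40.9% ventrally. Sgk1 was found in 67.4% against 85.6% and in 85.2% against 90.8%, and Klf9 in 55.05% against 68.0% and in 66.3% against 71.6%. Among the basal, fibroblast and macrophage gates, dorsal macrophages had the widest Fkbp5 difference, 37.5% (29.6 to 45.9) of 144 knockout cells against 7.57% (4.20 to 12.4) of 185 control cells. No type examined is known to lack these genes, so free RNA from lysed cells could not be measured with them. The ciliated gate is set beside the basal one for comparison only. Its unthinned medians were 31076, 20904.5, 30154 and 15898 UMIs per cell, in the order of libraries given for basal cells. Its thinned shares were 2.56% to 5.00% for Fkbp5, 9.44% to 11.5% for Tsc22d3, 18.0% to 32.1% for Ddit4, 14.1% to 25.1% for Sgk1 and 41.2% to 48.7% for Klf9. The Tsc22d3 and Sgk1 shares of basal cells lay above the ciliated ones in all 4 libraries with no overlap of the intervals. The Fkbp5 intervals of basal and ciliated cells overlapped in both knockouts and the ventral control, those of Ddit4 in both dorsal libraries and those of Klf9 in the dorsal knockout. Ciliated shares can hold these cells' own RNA as well as free RNA. Neither overlap nor its absence therefore decides expression in basal cells. Basal shares of Fkbp5, Ddit4 and Klf9 are given as values, and the part of free RNA in basal shares and levels was not tested.

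Differences between regions were not used to choose the genes. In control basal cells, dorsal over ventral ratios were 0.443 (0.417 to 0.469) for Ddit4, 0.460 (0.416 to 0.508) for Zbtb16 and 0.510 (0.490 to 0.530) for Tsc22d3, so 3 of the 6 were at least 1.5-fold lower dorsally, as were 15.4% of all genes. Fkbp5 was at 11.2 dorsally and 10.3 ventrally, a ratio of 1.09 (0.916 to 1.29). In knockout basal cells the regional ratio of Tsc22d3 was 0.905 (0.875 to 0.936) and that of Ddit4 was 0.805 (0.760 to 0.853). There Zbtb16 (0.333, 0.295 to 0.376), Sgk1 (0.540, 0.523 to 0.558) and Klf9 (0.662, 0.631 to 0.694) were the 3 genes past 1.5-fold, with 21.1% of all genes. Set against the median gene, lower by 0.14 on the log2 scale in dorsal knockout basal cells, Klf9 was at 0.729, inside the 1.5-fold limit.

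Outside basal cells, regional differences are given for Fkbp5, Zbtb16 and Tsc22d3. Fkbp5 in fibroblasts was at 26.7 in dorsal and 55.2 in ventral controls (0.483, 0.436 to 0.534) and at 58.1 and 122 in knockouts (0.4755, 0.436 to 0.519). The share of all genes at least 1.5-fold lower dorsally, a smaller difference than that of Fkbp5, was 14.3% in control and 24.5% in knockout fibroblasts. In control macrophages Fkbp5 was at 22.5 dorsally and 72.1 ventrally (0.312, 0.213 to 0.449), in a comparison where 9.11% of all genes were at least 1.5-fold lower. Zbtb16 was at least 1.5-fold lower dorsally in 7 of 7 types of the knockouts, with ratios of 0.234 in macrophages, 0.333 in basal cells, 0.405 in T cells, 0.5001 in ciliated cells, 0.544 in fibroblasts, 0.553 in chondrocytes and 0.640 in secretory cells. The shares of all genes at least 1.5-fold lower in the same cells were 19.3%, 21.1%, 25.5%, 18.2%, 24.5%, 21.6% and 10.9%. Of these Zbtb16 ratios, those in macrophages, ciliated cells and chondrocytes rest on 31, 21 and 55 dorsal knockout UMIs, the last from 29 cells. In controls Zbtb16 was lower dorsally in 5 of 7 types, 3 of them past 1.5-fold (basal cells, macrophages and T cells, the last with 11% of all genes). Its control ratios were 1.03 in secretory and 1.47 (1.13 to 1.94) in ciliated cells. Tsc22d3 was at least 1.5-fold higher dorsally in knockout secretory cells, at 91.7 against 50.4 ventrally (1.82, 1.72 to 1.93), as were 8.55% of all genes. It was lower dorsally in control T cells, at 210.4 against 353 (0.596, 0.486 to 0.728). Region and library cannot be told apart here either.

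The eGFP reporter marks cells with a history of Ki67 expression after Cre acted, and it gives a contrast inside a library. Basal cells with at least 5 eGFP UMIs were compared with those with at most 1. The reporter-high cells were deeper in every library, with medians of 25426 against 18955.5 UMIs in the dorsal knockout. Tsc22d3 was lower in reporter-high cells of both dorsal libraries, at 372 against 493 CPM in the knockout (0.755, 0.720 to 0.791) and 116 against 154 in the control (0.7497, 0.699 to 0.804). In the ventral libraries its ratios were 1.06 (0.997 to 1.13) in the knockout and 0.983 (0.913 to 1.06) in the control. Zbtb16 was lower in reporter-high cells of the dorsal control, at 16.8 against 27.5 (0.610, 0.514 to 0.726), and at 0.856 (0.684 to 1.08) in the dorsal knockout. Sgk1 was at 0.884 (0.836 to 0.933) in the ventral knockout and 1.11 (1.06 to 1.16) in the ventral control. Ddit4 was lower in reporter-high cells of the dorsal control (0.838, 0.752 to 0.936), and its intervals included 1 in the other libraries. Klf9 was at 0.922 (0.879 to 0.967) in the dorsal and 0.903 (0.850 to 0.961) in the ventral control. Its intervals included 1 in both knockouts. The intervals of Fkbp5 included 1 in all 4 libraries.

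**Figure D4:**
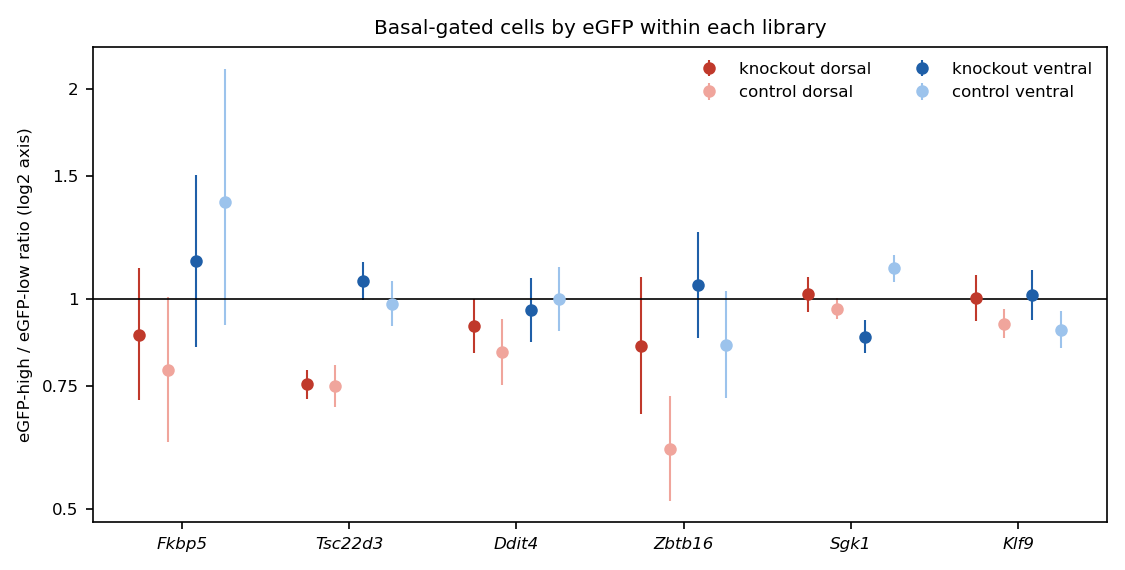
Ratio of each gene in eGFP-high (at least 5 UMIs) over eGFP-low (at most 1 UMI) basal-gated cells within each library (log2 axis), with 95% intervals of counting error. Tsc22d3 lies near 0.75 in both dorsal libraries and near 1 in both ventral libraries.

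The hormone receptor gene Nr3c1 was not higher in the knockouts in basal cells, at 54.5 against 84.4 dorsally (0.645, 0.604 to 0.690) and 77.7 against 87.9 ventrally (0.885, 0.816 to 0.959). In fibroblasts it was at 157 against 207 and 182 against 187, and T cells had the most, 884 to 1398 over the 4 libraries. Hsd11b1, whose enzyme regenerates active hormone inside cells, was higher in knockout fibroblasts, at 215 against 99.1 dorsally (2.17, 2.05 to 2.30) and 244 against 140.3 ventrally (1.74, 1.66 to 1.82). In chondrocytes it was at 165 against 34.5 dorsally and 150 against 33.8 ventrally, in the type where the Fkbp5 ratios were 1.05 and 1.27. Basal cells had at most 4 UMIs of Hsd11b1 in a library. The part of Hsd11b1 in the levels of Fkbp5 and the other 5 genes was not tested in any type. Of 14 measured genes for receptors, chaperones and steroid metabolism, 0 were at least 1.5-fold higher and 2 lower in knockout basal cells of each region, where 17.7% of all genes were lower dorsally and 9.14% ventrally. The drug transporter gene Abcb1b was lower in both, at 9.99 against 19.98 dorsally and 13.3 against 20.6 ventrally. Hsp90aa1, a receptor chaperone gene, was at 1.29 dorsally and 0.904 ventrally. Receptor coregulator genes had 5 of 12 lower dorsally, including Ppargc1a (0.450), Nrip1 (0.530) and Crebbp (0.558), and 1 of 12 lower ventrally, Ppargc1a (0.410), beside the same shares of all genes.

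A list of 40 other genes known to be induced by glucocorticoid in other settings gave no single direction in basal cells. Of 37 measured dorsally, 5 were at least 1.5-fold higher and 7 lower, with a median log2 ratio of -0.16 against -0.07 over all genes with 10 UMIs, of which 13.1% were higher and 17.7% lower. Ventrally 5 of 37 were higher and 2 lower, with a median of 0.11 against -0.01 and shares of all genes of 5.67% and 9.14%. The sulfotransferase gene Sult1a1 (2.91, 2.18 to 3.90, dorsally and 2.33, 1.78 to 3.05, ventrally) and Hif3a, a hypoxia factor gene, were higher in both regions. Hif3a rests on 28 and 2 UMIs dorsally (a ratio of 24.0, 6.06 to 208) and 26 and 6 ventrally (7.24, 2.91 to 21.5). Cdkn1c, a cell cycle inhibitor gene, was at 2.18 dorsally. Lcn2, which encodes an iron-scavenging secreted protein, was at 13.9 (10.2 to 19.4) ventrally, with 31.7 against 2.29 CPM. Lcn2 was also at least 1.5-fold higher in dorsal knockout basal cells and in knockout fibroblasts of both regions. On the low side were Foxo1 (0.443), Pdk4 (0.474) and Zfp36 (0.558) dorsally and the metallothionein gene Mt2 (0.573) ventrally. Mt1 (0.734) and Irs2 (0.752) were also below their ventral controls.

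Fibroblasts had more of this list on the high side, 8 of 37 dorsally (9.06% of all genes) and 7 of 38 ventrally (7.04%), with 4 and 1 lower (23.9% and 10.4%). The medians were 0.07 against -0.14 over all genes dorsally and 0.18 against 0.03 ventrally. Dorsal examples were Sult1a1 (2.37), the thioesterase gene Acot1 (2.35) and Mt2 (1.88), against Rgs2 (0.523) and Zfp36 (0.614) on the low side. Ventral examples were Klf15 (2.18), a metabolic transcription factor gene, and Hif3a (2.55). Genes that glucocorticoid is known to hold down lay on both sides. In dorsal basal cells 4 of 14 were at least 1.5-fold higher and 7 lower, against 13.1% and 17.7% of all genes, and in ventral ones 2 of 12 were higher and 1 lower, against 5.67% and 9.14%. In fibroblasts 1 of 16 was higher and 7 lower dorsally (9.06% and 23.9% of all genes), and 2 of 15 were higher and 1 lower ventrally (7.04% and 10.4%). The chemokine gene Cxcl10 was lower in both types and regions, at 0.231 and 0.445 in basal cells and 0.382 and 0.560 in fibroblasts. On the high side were the chemokine gene Ccl20 (4.55) and the alarmin gene Il33 (4.87, from 17 and 6 UMIs) in dorsal basal cells, Tslp (1.68) in dorsal fibroblasts and Il33 (1.64) in ventral ones. The cytokine gene Il6 was at 0.324 in dorsal basal cells and 2.32 in ventral ones, and Tnf was at 0.239 (5 and 36 UMIs) and 3.34 (18 and 9 UMIs).

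**Figure D5:**
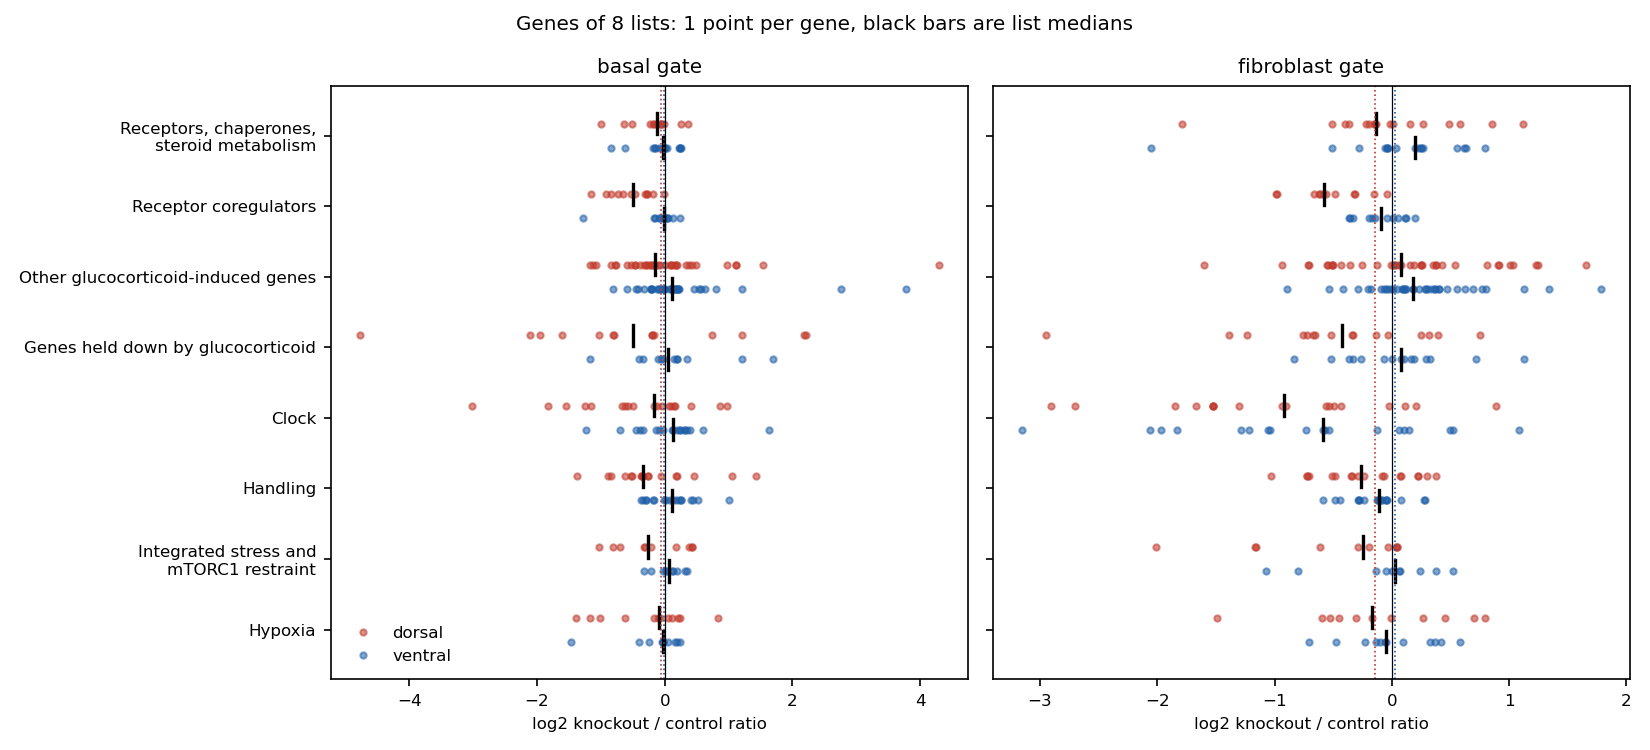
Log2 knockout to control ratios of the genes of 8 lists in the basal and fibroblast gates, with 0.5 UMIs added to each count. Points are genes, black bars are list medians and dotted lines are medians over all genes with 10 UMIs. The clock list in fibroblasts has medians of -0.92 dorsally and -0.59 ventrally, against -0.14 and 0.03 over all genes.

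Genes that respond to time of day, handling or stress were counted in the same libraries. In basal cells the counts below stand beside 13.1% of all genes higher and 17.7% lower in the dorsal knockout, and 5.67% higher and 9.14% lower in the ventral one. For fibroblasts the shares were 9.06% higher and 23.9% lower dorsally, and 7.04% higher and 10.4% lower ventrally. Of 19 measured clock genes, 2 were at least 1.5-fold higher and 7 lower in dorsal knockout basal cells, and 2 higher and 2 lower in ventral ones. In fibroblasts 10 of 18 were lower dorsally (23.9% of all genes) and 10 of 19 ventrally (10.4%), and 1 was higher in each. Nr1d1, a clock repressor gene, was at 0.154 and 0.281 in fibroblasts and 0.123 and 0.425 in basal cells, and Dbp, a clock output gene, was at 0.133 and 0.112 in fibroblasts. Per1, which belongs to both the clock and the glucocorticoid-induced list, was at 1.08 and 1.10 in basal cells and 0.740 and 0.690 in fibroblasts. Handling genes had 2 of 18 higher and 4 lower dorsally and 1 higher and 0 lower ventrally in basal cells. Nr4a1 (0.387) and Jun (0.540) were lower in dorsal knockout cells, while Hspa1a (2.70) and Hspa1b (2.07) were higher there. Genes of the integrated stress response and mTORC1 restraint, to which Ddit4 is functionally close, had 0 of 10 at least 1.5-fold higher in either gate and region, and 3, 0, 4 and 2 lower in dorsal basal, ventral basal, dorsal fibroblast and ventral fibroblast cells. Hypoxia genes, which Ddit4 can join, had 1 of 12 higher and 4 lower in dorsal basal cells and 0 of 11 higher and 1 lower in ventral ones. The part of these groups in the levels of the 6 genes was not tested.

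Some cell markers also differed between the libraries. The 4 markers of hillock cells, a squamous-like airway cell type, summed in basal-gated cells to 794 CPM in the dorsal knockout and 1363 in the dorsal control, and to 177 and 276 in the ventral pair, with 0 of them at 0. Sgk1 and Klf9 were lower in the same knockout cells, and the part of the hillock markers in that was not tested. Krt14, a keratin gene of some basal cells, was at 52.6 against 241 in dorsal knockout and control basal cells and 138 against 67.2 in the ventral pair. In basal cells without a Krt14 UMI, a group chosen after the data were seen, the dorsal Tsc22d3 ratio was 3.05 and the ventral Fkbp5 ratio was 2.48. The 7 secretory markers, a measure of free RNA in fibroblasts, summed to 757 in dorsal knockout and 2521 in dorsal control fibroblasts and to 1131 and 1474 in the ventral pair, with 0 of the 7 markers at 0 in any library. Secretory cells had lower levels of Fkbp5, Tsc22d3 and Ddit4 than fibroblasts in each library. The part of free RNA in the fibroblast ratios was not tested.

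Across 27 profiles, each a cell type of 1 library with at least 50 cells, the genes most like each of the 6 were ranked by Pearson correlation of log2 levels (10 CPM added) among 11673 genes. These profiles share libraries and cell types, so the values are a description. Fkbp5 was most like the gene model Gm56830 (0.909), Hip1 (0.894) and Jade2 (0.878). Tsc22d3 was most like Snhg8 (0.913), Tmed7 (0.906) and Gas5 (0.899), and Ddit4 like Elovl6 (0.843), Pik3ip1 (0.842) and Pdcd4 (0.842). Zbtb16 was most like Sp4 (0.961), Bcl2 (0.956) and Smad3 (0.941), Sgk1 like Efna5 (0.942), Wwc2 (0.933) and Pls3 (0.933), and Klf9 like Boc (0.969), Serpinh1 (0.959) and Lamb2 (0.956). Among the 6 themselves, Sgk1 with Klf9 (0.779) and Fkbp5 with Tsc22d3 (0.758) were the most alike pairs, and Sgk1 with Zbtb16 (-0.175) and with Fkbp5 (-0.167) the least.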

How the data were processed

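Raw UMI counts for every gene and cell barcode were used as deposited by the authors. Per the submitters' processing notes they come from Cell Ranger 10.0.0 and build GRCm39. The annotation release is not stated. The libraries held 161377683 (knockout dorsal), 286711618 (control dorsal), 144851737 (knockout ventral) and 204278955 (control ventral) UMIs, and any 2 of them shared between 21 and 57 barcodes.

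Cells needed 500 or more genes and 15% or fewer mitochondrial UMIs. Scrublet doublets were removed (scanpy 1.11.5), 65 and 297 in the knockout and control dorsal libraries at its automatic threshold. Ventrally the automatic rates were 0.223% and 0.0821%, and a fixed rate of 0.4% for each 1000 barcodes removed 181 and 380 cells. This left 6120, 12949, 6545 and 9364 cells. Gates, per 10000 UMIs of a cell, were Trp63 (at least 1 UMI) with Krt5 (5) for basal, Scgb1a1 (50) for secretory, Tmem212 (3) for ciliated, Col1a2 (5) for fibroblast, Acan (2) for chondrocyte, C1qa (2) for macrophage and Cd3e (1) for T cells. Cells in several gates were left out.

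Counts were summed per gate and library. Intervals are exact (Poisson for levels, conditional binomial for ratios, Clopper-Pearson for shares, scipy 1.17.1). Only the ratio intervals were tried on simulated data, with Poisson counts drawn from basal-cell profiles. Those counts follow the model the intervals assume, so the trial checks the calculation and not the spread between cells or mice. With 1 library per group no test was made. The alternatives tried are other denominators, cell filters, gates, weights and minimum counts.

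The 6 genes, the gene lists and the comparisons were chosen with earlier results of these data known. The genes named are the 6, the 3 most alike genes of each, and in each list the 3 genes each way with the furthest interval bounds in basal cells. Nr3c1, Hsd11b1, Per1, Ctnnb1, Krt14 and the genes named in fibroblasts fall outside that rule and were picked after their values were seen. Ddit3 was left out because 2 features bear that symbol, and Bmal1 was matched through its RefSeq synonym.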

Additional observations from a re-analysis of the deposited data

Results flagged for a closer look

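For 4 ratios the dorsal and ventral pairs of libraries lay on opposite sides of 1, with counting intervals that exclude 1 in both regions. With 1 library per group the difference between regions was not tested. Klf9 in fibroblasts was at 1.44 dorsally and 0.964 ventrally. Ddit4 in chondrocytes was at 0.739 dorsally, from 94 UMIs in 29 knockout cells against 557 in controls, and at 1.49 ventrally. Ddit4 in T cells was at 1.49 dorsally (121 and 76 UMIs) and 0.704 ventrally (132 and 254 UMIs). Zbtb16 in macrophages was at 0.501 dorsally, from 31 and 56 UMIs, and 1.37 ventrally, from 142 and 95 UMIs.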

How the results depend on the processing

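Of the 84 knockout to control ratios (6 genes, 7 types, 2 regions), 32 were past 1.5-fold. All 32 stayed on the same side of 1 under the 9 alternatives run in every gate and the 2 run in basal cells alone, and 25 stayed past 1.5-fold in all of them. Of the other 52, 35 were never past it. Ratios near 1 were less settled, with 11 of the 84 crossing it in at least 1 alternative.

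Basal ratios moved with the denominator, the gates and the weights. Without mitochondrial and ribosomal protein UMIs, Tsc22d3 was at 3.47, Ddit4 at 2.57, Sgk1 at 0.603 and Klf9 at 0.645. With size factors they were at 3.48, 2.58, 0.604 and 0.645. With gate thresholds doubled Tsc22d3 was at 3.02 and Ddit4 at 1.93 dorsally, and Tsc22d3 at 1.97, Ddit4 at 1.44 and Sgk1 at 0.769 ventrally. In basal cells without Krt14, a choice made after seeing the data, dorsal Tsc22d3 was at 3.05 and Klf9 at 0.573. With cells weighted alike dorsal Sgk1 was at 0.529. The same weighting put Zbtb16 in ventral secretory cells at 2.59, and keeping doublets put Sgk1 in dorsal T cells at 0.361, against 0.692. The causes were not tested.

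Counts of the 6 genes at least 1.5-fold higher moved in the smaller gates. In dorsal T cells the count was 1, against 0 in the reported analysis, without mitochondrial and ribosomal UMIs, with size factors, doublets kept, gates doubled or halved, cells of several gates kept, or a minimum of 1 UMI. In ventral T cells it was 1, against 0, with gates doubled, several gates kept or cells weighted alike. In dorsal chondrocytes it was 1, against 0, with size factors or gates halved. In ventral chondrocytes it was 1, against 0, with size factors, doublets kept, gates doubled, several gates kept or the 20 top genes left out (added after seeing the data), and 2 with cells weighted alike. In dorsal ciliated cells it was 2 with gates halved and 0 with several gates kept or cells weighted alike, against 1. In ventral ciliated cells it was 1 with doublets kept or gates doubled and 0 with a minimum of 200 UMIs, against 2. That minimum left 0 genes in dorsal and 1 in ventral macrophages, against 2 in each, and cells weighted alike gave 4 in ventral secretory cells, against 2.

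No paired analysis was possible because each group has 1 library. For the same reason no library was left out in turn. Depth limits the T cell, macrophage and dorsal chondrocyte values, and the intervals leave out the variation between mice.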
